A study of Mus musculus with 8 samples.

Results

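Potassium channel genes were examined in the developing mouse retina. The set was defined by name: every gene whose symbol begins with Kcn, with 1 symbol left out, which gave 94 genes of the 21827 in the deposited tables. Earlier results of these data were known when it was chosen. All cells came from ICR mice without any engineered allele or treatment, and the mice of the study are stated to be free of the rd1 and rd8 retinal degeneration mutations. RNA was sequenced from whole retinas at embryonic days 15 and 18 (E15 and E18) and from cells sorted at postnatal days 2, 5 and 8 (P2, P5 and P8) with an antibody to Cd73, a surface enzyme of rod precursors and rods, into Cd73-positive (Cd73PC) and Cd73-negative (Cd73NC) cells. Retinas of several mice were pooled for each sort, and each of the 8 conditions has 1 library. Both fractions of a stage came from the same pooled retinas. No difference within a stage could therefore be set against a replicate error, and the only test was one over the 3 pairs of fractions. Levels are FPKM, the number of sequenced fragments scaled to transcript length and to the mapped fragments of the library, a scale on which genes of different length can be compared. A difference was counted when FPKM + 1 differed by more than 1.5-fold.

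Potassium channels let potassium leave the cell along its gradient, which sets the resting potential and ends electrical signals. The pore is built from several subunits of the voltage-gated (Kv) or inward rectifier (Kir) type, or from a pair of two-pore subunits, and silent Kv subunits, beta subunits and small membrane proteins join the pore and change how it opens. In rods, the silent subunit encoded by Kcnv2 takes part in a current of the inner segment that opposes the light response, and loss of human KCNV2 function causes an inherited cone and rod disease. Bipolar, amacrine and ganglion cells use other Kv and calcium-activated channels to shape graded signals and spikes, and glia and pigment epithelium take up and release potassium through inward rectifiers.

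Marker genes were compared between the fractions. Summed FPKM of 7 rod genes was 3215, 7073 and 11770 in Cd73PC at P2, P5 and P8, and Cd73NC held 1.57%, 11.4% and 6.54% of those sums. Summed FPKM of 7 bipolar genes was 536, 1263 and 2330 in Cd73NC and 829, 573 and 566 in Cd73PC, so it was higher in Cd73PC at P2 and lower at P5 and P8. Otx2, which photoreceptors also express, gave 777 of the 829 in P2 Cd73PC. The 5 cone genes summed to 58.8, 147 and 117 in Cd73NC and 132, 112 and 146 in Cd73PC. The absolute depth of the libraries is unknown, but low FPKM values moved in steps worth 1 read, which gave a depth between 0.966 and 1.61 of that of the E18 library. In bulk samples, fewer cells of a type and less RNA per cell cannot be told apart, and this holds for every level below.

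Of the 94 genes, 54 reached FPKM 1 in at least 1 library, 16 reached FPKM 10, and 40 stayed below 1 in all 8. Kcnk15, Kcnk18 and Kcnmb3 were listed at 0 throughout. The summed level of all 94 was 183 at E15 and 223 at E18. In Cd73NC it was 195, 314 and 500 at P2, P5 and P8, and in Cd73PC it was 300, 321 and 423. The sums of the fractions thus lay apart by 1.54-fold at P2 and nearly met at P5, with a ratio of 1.02 of Cd73PC to Cd73NC. At P8 the ratio was 0.844. The P2 direction rested on Kcne1l, since with Kcnv2 and Kcne1l left out Cd73PC held the smaller sum at each stage, by ratios of 0.688, 0.711 and 0.503. The make-up of these sums differed as well. The 5 highest genes gave 77.4%, 81.1% and 79.7% of the sum in Cd73PC at the 3 stages, against 57.0%, 63.6% and 45.8% in Cd73NC. In P8 Cd73PC, 45.2% of the summed level came from silent Kv subunits, against 4.75% in P8 Cd73NC, where 37.7% came from Kv pore subunits and 17.5% from calcium- or sodium-activated channels with the beta subunits of BK (the large-conductance calcium-activated channel). The 14 two-pore channels summed to 50.2 there and to 8.55 in P8 Cd73PC.

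**Figure D1:**
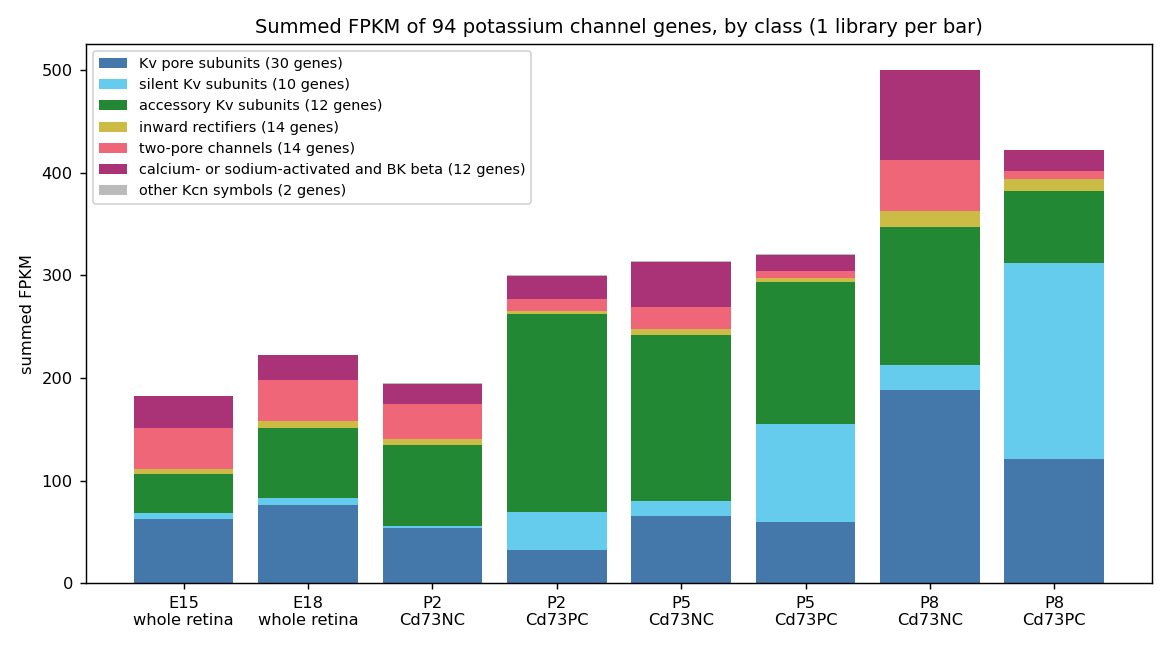
Summed FPKM of the 94 potassium channel genes by class in each library (1 library per bar, so no error bars). The silent Kv class stands at 36.8, 94.9 and 191 in Cd73PC at P2, P5 and P8, and at 2.49, 14.6 and 23.8 in Cd73NC.

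Promoter sequences were taken from RefSeq (GRCm38.p6), as 300 bases from 250 before to 50 after the transcription start. They were found for 69 of the 94 genes, and Kcnv2 and Kcnj14 had no entry. The promoters of 4 genes are printed. Kcne1l was the potassium channel gene with the highest level in P2 Cd73PC, and Kcna5 the one with the largest difference toward Cd73NC at P8. Kcng4 and Kcnj9 had their higher levels in P8 Cd73NC, and their windows hold the letters TAATCC. These letters are the core bound by homeodomain factors such as Crx and Otx2. All 4 lie on the minus strand and are written in the direction of transcription, with TAATCC, or GGATTA for the other strand, in capitals.
Kcne1l, chrX:142306149-142306448: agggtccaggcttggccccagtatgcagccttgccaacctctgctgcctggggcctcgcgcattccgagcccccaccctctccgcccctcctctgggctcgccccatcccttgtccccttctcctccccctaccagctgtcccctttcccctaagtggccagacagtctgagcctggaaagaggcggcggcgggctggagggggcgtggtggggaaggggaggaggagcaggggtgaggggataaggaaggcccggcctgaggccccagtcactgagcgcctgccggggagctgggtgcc
Kcna5, chr6:126535506-126535805: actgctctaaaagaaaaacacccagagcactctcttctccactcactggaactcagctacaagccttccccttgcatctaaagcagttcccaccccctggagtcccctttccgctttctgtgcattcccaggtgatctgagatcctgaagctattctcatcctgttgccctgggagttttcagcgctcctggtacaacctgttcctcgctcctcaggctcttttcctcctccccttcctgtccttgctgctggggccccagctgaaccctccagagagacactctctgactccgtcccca
Kcng4, chr8:119635631-119635930: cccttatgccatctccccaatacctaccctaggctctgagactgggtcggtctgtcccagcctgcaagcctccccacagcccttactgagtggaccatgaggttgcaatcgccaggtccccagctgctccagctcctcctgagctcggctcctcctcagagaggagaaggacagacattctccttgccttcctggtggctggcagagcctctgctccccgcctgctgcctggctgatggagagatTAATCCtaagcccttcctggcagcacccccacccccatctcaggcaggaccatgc
Kcnj9, chr1:172329273-172329572: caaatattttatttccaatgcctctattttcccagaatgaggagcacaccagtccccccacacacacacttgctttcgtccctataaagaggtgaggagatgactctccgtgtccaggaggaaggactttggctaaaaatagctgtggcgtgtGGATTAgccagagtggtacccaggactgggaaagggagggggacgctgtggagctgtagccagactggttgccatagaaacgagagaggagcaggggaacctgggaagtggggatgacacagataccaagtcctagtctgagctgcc
Kcne1l and Kcna5 hold 0 copies and Kcng4 and Kcnj9 hold 1 each. Across all 32851 promoters of this length, 7.06% hold the letters on either strand. The 69 potassium channel genes found have 94 promoters, since some have more than 1, so this 94 is not the number of genes. Of these 94 promoters 3 hold the letters (3.19%), each of a different gene, the other one being that of Kcnrg. The Kcne1l window has a GC content of 69.7%, against a median of 52.7% over all promoters, and the Kcna5, Kcng4 and Kcnj9 windows have 55.0%, 61.3% and 52.3%.

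The comparison between sorted fractions asks which channel genes go with developing rods and which with the remaining retinal cells. At P2, 8 of the 94 genes were higher in Cd73PC and 15 were lower, shares of 8.51% and 16.0% that lay near the 8.56% and 14.4% of all genes. At P5, 4 were higher (all genes 7.02%) and 19 were lower (20.2%, all genes 15.5%). At P8, 6 were higher (6.38%, all genes 7.54%) and 36 were lower, 38.3% against 18.6% of all genes. The median log2 ratio over the 94 genes was -0.03, -0.09 and -0.18 at P2, P5 and P8, and over all genes 0.00, 0.00 and -0.02. On FPKM + 1, genes of low level in both libraries have ratios near 0. With FPKM of at least 1 in either library, it was -0.34, -0.65 and -1.37 over 31, 30 and 40 potassium channel genes. Over all such genes it was -0.14, -0.18 and -0.23. A gene can pass this filter through its higher library alone. Higher in Cd73PC at all 3 stages were 2 of the 94 genes, Kcnv2 among them (all genes 3.51%), and Kcna2, Kcna3, Kcna5, Kcna6, Kcnip3, Kcnj11 and Kcnk1 were lower at all 3 (7 of 94, all genes 7.83%). Kcnab1, Kcnb2, Kcne1l, Kcnk3 and Kcnk5 were past 1.5-fold in opposite directions at 2 stages (5 of 94, all genes 1.36%).

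Over the 3 pairs of fractions, the difference was tested with limma on log2(FPKM + 1), with stage as the block and Benjamini-Hochberg adjustment over 13056 genes that reached FPKM 1 in a sorted library. The fit takes the stages as the replicates, so a difference that turns with stage counts as spread. Of the 46 potassium channel genes in it, 2 were higher in Cd73PC (all genes 8.9%) and 10 were lower (all genes 19.2%) at an adjusted p below 0.05. Each gene left 2 residual degrees of freedom, and limma drew its variance toward a trend over all genes tested. The SE given here are these moderated ones, not the plain SE of the 3 differences. Kcnv2 had a mean log2 difference of 3.59 ± 0.305 (moderated SE, 3 pairs, limma adjusted p = 0.00311). Kcnk1 (-2.21 ± 0.191, limma adjusted p = 0.00322) and Kcna5 (-2.37 ± 0.239, limma adjusted p = 0.00392) were lower in Cd73PC in all 3 pairs. Kcna6, Kcnip3, Kcnj11, Kcna2, Kcna3 and Kcnd3 were also among the lower genes. Kcnma1, with a difference of -1.53 ± 0.472, did not pass (limma adjusted p = 0.0635). Without the P5 pair 1 gene was higher and 0 lower, and without the P8 pair 3 were higher and 6 lower.

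**Figure D2:**
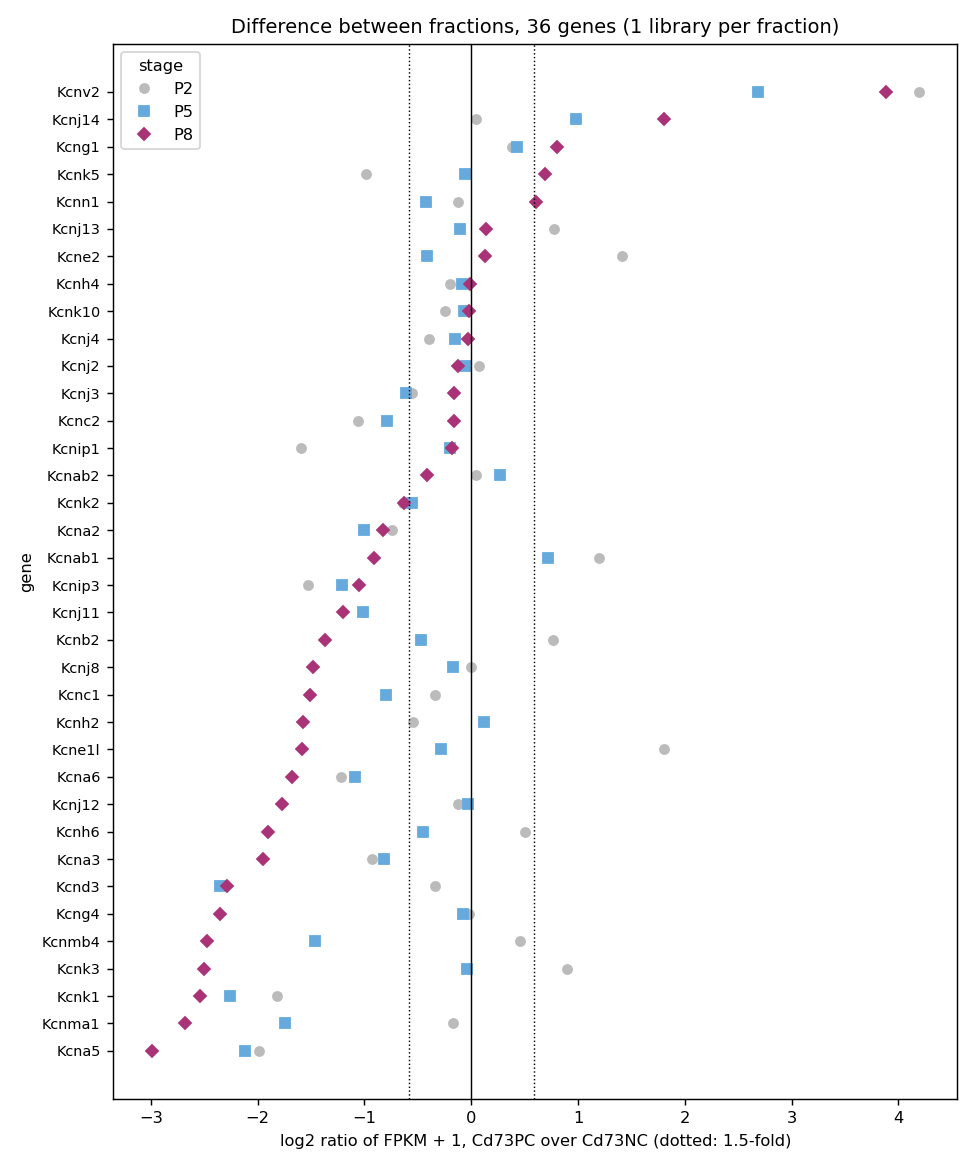
Log2 ratio of FPKM + 1, Cd73PC over Cd73NC, for 36 potassium channel genes, at P2 (circles), P5 (squares) and P8 (diamonds). Dotted lines mark 1.5-fold. Kcnv2 lies to the right at all 3 stages, and Kcna5 lies farthest to the left at P8 with a log2 ratio of -2.99.

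Kcnv2, the silent subunit of the rod current (chr19:27397109-27411669, mm9), was the potassium channel gene with the highest level in P8 Cd73PC. Its FPKM was 0.66 at E15 and 2.50 at E18, then 36.2, 94.1 and 188 in Cd73PC at P2, P5 and P8 and 1.03, 13.8 and 11.8 in Cd73NC. Every Cd73PC value was above every other library, and the log2 ratio of the fractions was 4.19, 2.69 and 3.89. From P2 to P8, Kcnv2 was 5.21-fold higher in Cd73PC. Its deposited FPKM lay slightly above its own upper confidence bound in P5 Cd73PC, at 94.1 against 93.9, and in P8 Cd73PC, at 188 against 186.

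Kcnv2 alone made up 12.0%, 29.4% and 44.6% of the summed potassium channel level in Cd73PC at P2, P5 and P8, and 0.527%, 4.39% and 2.35% in Cd73NC. The Cd73NC level of Kcnv2 was 2.85%, 14.6% and 6.26% of its Cd73PC level, beside 1.57%, 11.4% and 6.54% for the rod genes. Whether rods in the Cd73NC fraction account for its level there was not tested.

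**Figure D3:**
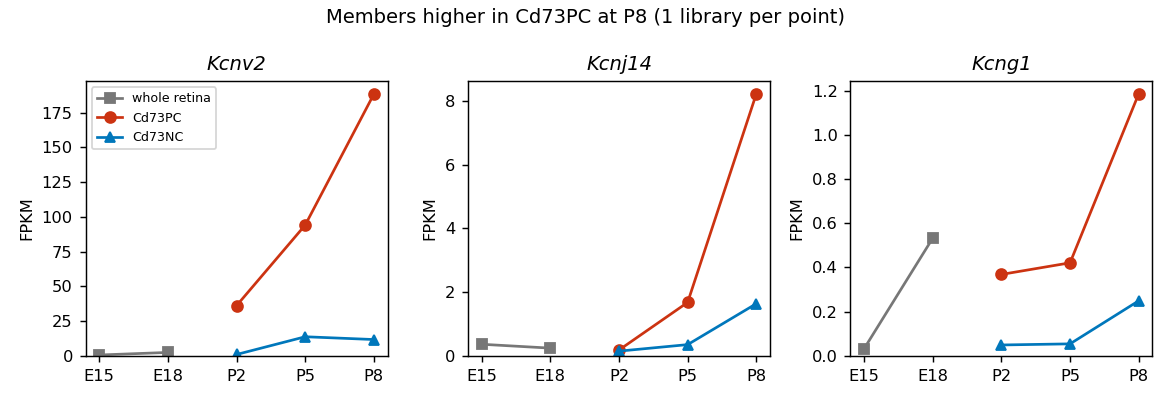
FPKM of Kcnv2, Kcnj14 and Kcng1 in whole retina (squares), Cd73PC (circles) and Cd73NC (triangles) from E15 to P8, 1 library per point and a separate axis per gene. In Cd73PC each of the 3 genes was highest at P8, at 188, 8.22 and 1.19.

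A few further genes were higher in Cd73PC late. Kcnj14, an inward rectifier of the Kir2 group, had FPKM 0.37 and 0.24 in whole retina, 0.19, 1.68 and 8.22 in Cd73PC and 0.15, 0.35 and 1.64 in Cd73NC. The fractions lay together at P2 and apart by log2 ratios of 0.98 at P5 and 1.81 at P8. Kcng1, another silent subunit, reached 1.19 in P8 Cd73PC and 0.53 or less in the other 7 libraries. Kcnn1, a small-conductance calcium-activated channel, was 8.65 at E15, 5.17 at E18, 3.68, 5.04 and 7.86 in Cd73PC and 4.10, 7.10 and 4.81 in Cd73NC, and its P8 log2 ratio of 0.61 was just past 1.5-fold. Of the 54 genes that reached FPKM 1, 26 had their highest level in P8 Cd73NC. In P8 Cd73PC 4 had it, among them Kcnv2, Kcnj14 and Kcng1. Kcne1l had it in P2 Cd73PC, and none of the 54 in P5 Cd73PC. The library of highest level was not counted over all genes.

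Kcne1l, which has the synonym Kcne5 and encodes a small accessory membrane protein of the Kcne family, was the highest potassium channel gene at P2 and P5 in both fractions. Its FPKM was 16.3 and 26.1 in whole retina, 162, 99.6 and 20.9 in Cd73PC at P2, P5 and P8, and 45.5, 122 and 64.7 in Cd73NC. It was thus highest at P2 in Cd73PC and at P5 in Cd73NC, with log2 ratios of 1.81, -0.29 and -1.59. The gene is short (chrX:138739296-138740741, mm9), and in 5 of the 6 sorted libraries, all but P8 Cd73PC, its deposited FPKM lay above its own upper confidence bound, for example 162 against 147 in P2 Cd73PC. Kcne2, a second member of this family, was at 0.09 and 0.80 in whole retina, 5.93, 10.2 and 12.9 in Cd73PC and 1.61, 13.9 and 11.7 in Cd73NC, so that the fractions were apart only at P2 among the 3 stages, with a log2 ratio of 1.41.

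The other accessory subunits gave each its own pattern. Kcnab1, a Kv1 beta subunit, was 3.94 and 3.76 in whole retina, 7.71, 4.90 and 4.61 in Cd73PC and 2.80, 2.59 and 9.52 in Cd73NC, higher in Cd73PC at P2 and P5 and lower at P8. Kcnab2, the related beta subunit, was among the 5 highest genes of both fractions at P8, at 28.3 in Cd73PC and 37.9 in Cd73NC, and its log2 ratios of 0.04, 0.27 and -0.41 were within 1.5-fold at each stage. Kcnip1 and Kcnip3, calcium-binding partners of Kv4 pores, were both lower in Cd73PC at P2, at 2.33 against 9.06 and 0.94 against 4.61. Kcnip1 was 8.90 at E18 and 0.28 or less in the 4 sorted libraries of P5 and P8, while Kcnip3 remained lower in Cd73PC at P5 (0.60 against 2.70) and at P8 (0.33 against 1.77).

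Of the 8 Shaker-type Kv1 pore subunits (Kcna), 4 were lower in Cd73PC at P2 (all genes 14.4%), 4 at P5 (15.5%) and 5 at P8 (18.6%), and at none of the stages was 1 of them higher. Kcna5 was 1.25 at E15, 8.95 at E18, 14.6, 6.21 and 52.3 in Cd73NC and 2.91, 0.66 and 5.70 in Cd73PC. The value of P8 Cd73NC exceeded all other libraries, and both fractions were lowest at P5. Kcna6 was 3.36, 2.19 and 6.07 in Cd73NC and 0.88, 0.50 and 1.22 in Cd73PC, Kcna3 was 1.89, 0.82 and 4.01 against 0.52, 0.03 and 0.30, and Kcna2 was 1.24, 1.66 and 1.46 against 0.34, 0.33 and 0.38. The Cd73NC level of Kcna2 thus lay between 1.24 and 1.66 over the 3 stages. Kcna5 and Kcna6 lie on chromosome 6 with Kcna1, at 100907 and 62527 bases from it, and Kcna2 and Kcna3 lie 63437 bases apart on chromosome 3. In the annotation 39.5% of the exon bases of Kcna6 are shared with Gm17456 on the opposite strand. Since the library kit is not stated to mark strand, reads of the 2 genes cannot be told apart within the shared bases.

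**Figure D4:**
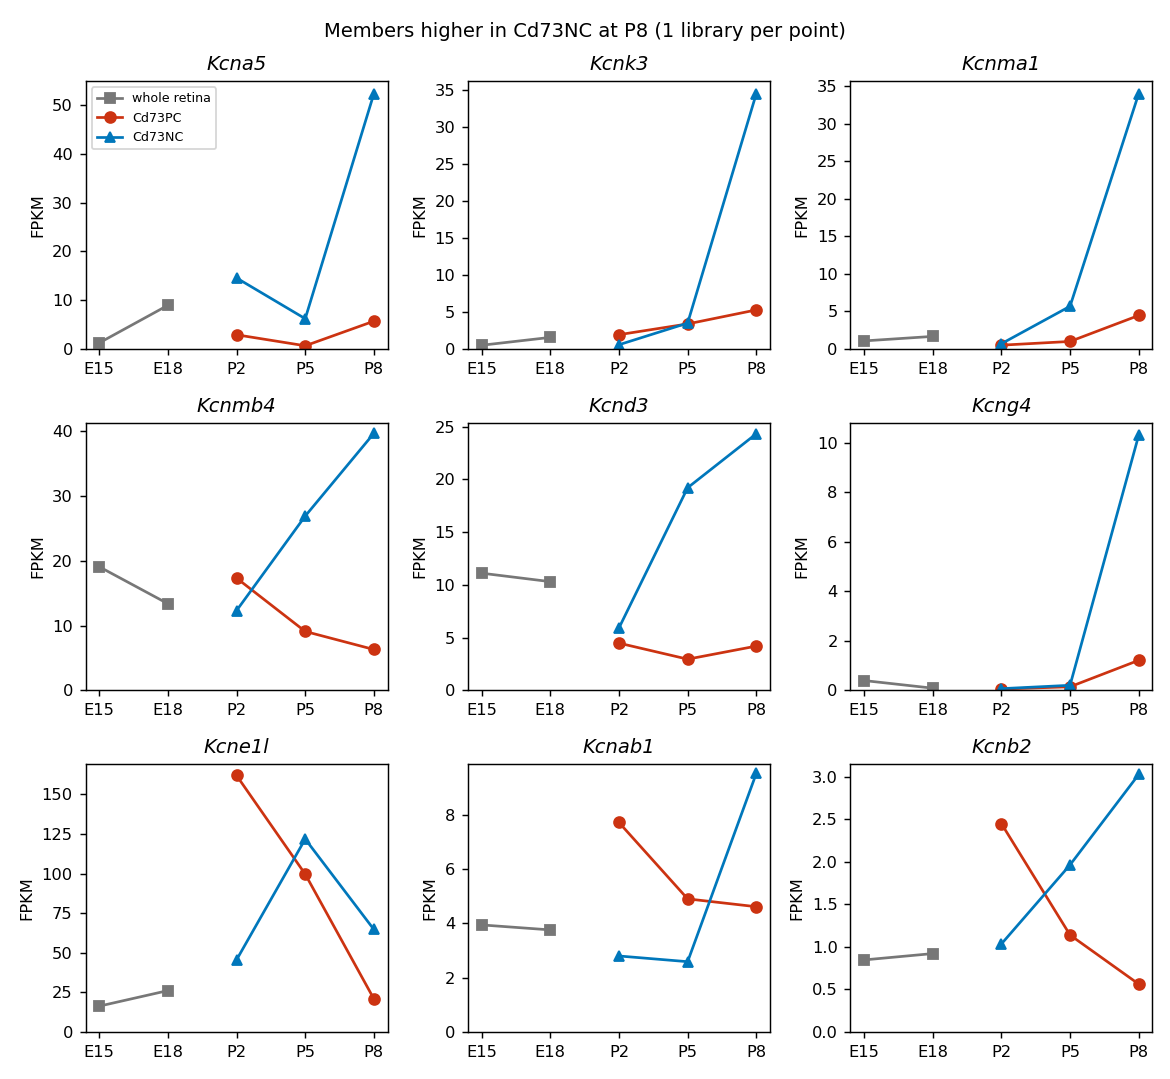
FPKM of 9 genes that were higher in Cd73NC at P8, in whole retina (squares), Cd73PC (circles) and Cd73NC (triangles), 1 library per point and a separate axis per gene. Kcne1l, Kcnab1, Kcnb2, Kcnk3 and Kcnmb4 have the higher point in Cd73PC at P2 and in Cd73NC at P8, Kcnmb4 by less than 1.5-fold at P2.

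Other voltage-gated pores were higher in P8 Cd73NC. Kcnd3, a Kv4 pore of transient (A-type) currents, was 11.1 and 10.3 in whole retina, 5.92, 19.2 and 24.3 in Cd73NC and 4.48, 2.96 and 4.20 in Cd73PC, so the fractions were close at P2 and had log2 ratios of -2.35 and -2.28 at P5 and P8. Kcnh2, Kcnh5 and Kcnh6 of the ether-a-go-go family were within 1.5-fold at P2 and P5 and past it at P8. At P8, Kcnh2 was 20.2 in Cd73NC and 6.09 in Cd73PC. Kcnh6 was 19.0 against 4.33 and Kcnh5 9.29 against 1.26. Of the Kv3 genes, whose channels open and close fast at strong depolarisation, Kcnc1 was 1.54, 2.45 and 5.91 in Cd73NC and 1.001, 0.982 and 1.42 in Cd73PC. Kcnc2 took the opposite course in time, from 5.17 at E18 to 3.52 and 1.16 at P2 and to 0.17 and 0.04 at P8 in Cd73NC and Cd73PC. Kcnb2, a Kv2 pore, was 1.03, 1.96 and 3.03 in Cd73NC and 2.45, 1.14 and 0.56 in Cd73PC, higher in Cd73PC at P2 and lower at P8.

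Kcng4, a silent subunit like Kcnv2, appeared late and in the other fraction. It was 0.40 and 0.09 in whole retina, 0.07, 0.21 and 10.3 in Cd73NC and 0.06, 0.15 and 1.22 in Cd73PC, a log2 ratio of -2.35 at P8.

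Among two-pore channels, which carry leak current at rest, Kcnk1 and Kcnk3 differed in time course. Kcnk1 was the highest potassium channel gene of whole retina, at 32.2 and 30.5, and was 29.8, 15.6 and 13.1 in Cd73NC and 7.75, 2.46 and 1.42 in Cd73PC, lower in Cd73PC by log2 ratios of -1.82, -2.26 and -2.54. Kcnk3, an acid-sensitive leak channel, was 0.50 and 1.57 in whole retina, 0.57, 3.50 and 34.5 in Cd73NC and 1.93, 3.39 and 5.28 in Cd73PC. It was 60.1-fold higher at P8 than at P2 in Cd73NC, and the order of the fractions at P2 was opposite to that at P8. Kcnk5 was 2.95 and 3.06 in whole retina, 2.13, 0.51 and 0.19 in Cd73NC and 0.58, 0.45 and 0.92 in Cd73PC. Kcnk2, a mechanically gated channel, was 0.77 or less in every library of P5 and P8.

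Of the BK channel genes, the pore Kcnma1 and 1 of the 4 beta subunits, Kcnmb4, were higher in Cd73NC at P5, and these and Kcnmb2 at P8. Kcnma1, opened by calcium and voltage, was 1.07 and 1.68 in whole retina, 0.70, 5.69 and 34.0 in Cd73NC and 0.507, 1.003 and 4.47 in Cd73PC. Its level was 48.6-fold higher at P8 than at P2 in Cd73NC and 8.81-fold higher in Cd73PC. Kcnmb4, the neuronal beta subunit of BK, stood higher than the pore in whole retina, at 19.1 and 13.4. It was 12.3, 26.9 and 39.6 in Cd73NC and 17.3, 9.09 and 6.31 in Cd73PC, so the fractions moved apart with stage, with log2 ratios of 0.46, -1.47 and -2.47. The annotation places 20.8% and 10.7% of the Kcnmb4 exon bases under 2 genes of the opposite strand, 4933400F03Rik and 1700058G18Rik. Kcnmb2 was 2.89 in P8 Cd73NC and 0.23 in Cd73PC.

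Markers of other cells differed between the fractions beside these genes. At P8 the 7 bipolar genes summed to 2330 in Cd73NC against 566 in Cd73PC, and the 7 Müller glia genes to 1270 against 388. Over the 4 of 6 listed amacrine genes analysed here the sums were 39.8 in Cd73NC and 55.7 in Cd73PC, with Slc6a9 at 10.4 against 50.7, while the other 3 were lower in Cd73PC, Pax6 at 27.7 against 4.45 among them. The part of any of these cell types in the channel levels was not tested. Between Cd73NC at P5 and P8, the bipolar sum went from 1263 to 2330 and the Müller glia sum from 1530 to 1270.

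Inward rectifiers were low, with a summed level of 3.36 to 15.0 over the 14 genes in the 8 libraries. Kcnj11, the pore of a channel closed by ATP, was 0.50 and 2.92 in whole retina, 2.25, 2.41 and 3.54 in Cd73NC and 0.61, 0.69 and 0.97 in Cd73PC. Its partner Abcc8 was 4.78 in P8 Cd73NC and 0.976 or less in the other 7 libraries. Kcnj8, the ATP-sensitive pore of pericytes and vascular muscle, was 2.17 in P8 Cd73NC and 0.13 in P8 Cd73PC, where its partner Abcc9 was 1.24 and 0.09 and the summed pericyte genes were 27.3 and 8.46. The part of pericytes in this difference was not tested. Kcnj12, a Kir2 pore, was 3.99 in P8 Cd73NC, 0.46 in P8 Cd73PC and 0.88 or less elsewhere, while Kcnj2 and Kcnj4 stayed at 0.38 or less in all 8. Kcnj13, a rectifier of the pigment epithelium, was 0.05 in Cd73NC and 0.79 in Cd73PC at P2, where the summed pigment epithelium genes were 0.57 and 50.5, although Rpe65 was listed at 0 in P2 Cd73PC. At P5 and P8 Kcnj13 was 0.35 and 0.61 in Cd73NC against 0.26 and 0.77 in Cd73PC, beside pigment epithelium sums of 37.1 and 52.2 against 53.2 and 93.6, and their part in it was not tested. In the annotation 28.0% of its exon bases are shared with Gigyf2. Of the rectifiers opened by G proteins, Kcnj3 was 2.48, 1.76 and 0.48 in Cd73NC and 1.36, 0.80 and 0.32 in Cd73PC, with 31.1% of its exon bases shared with Gm17595 on the opposite strand. Kcnj9 was 2.19 in P8 Cd73NC against 0.24 in P8 Cd73PC.

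**Figure D5:**
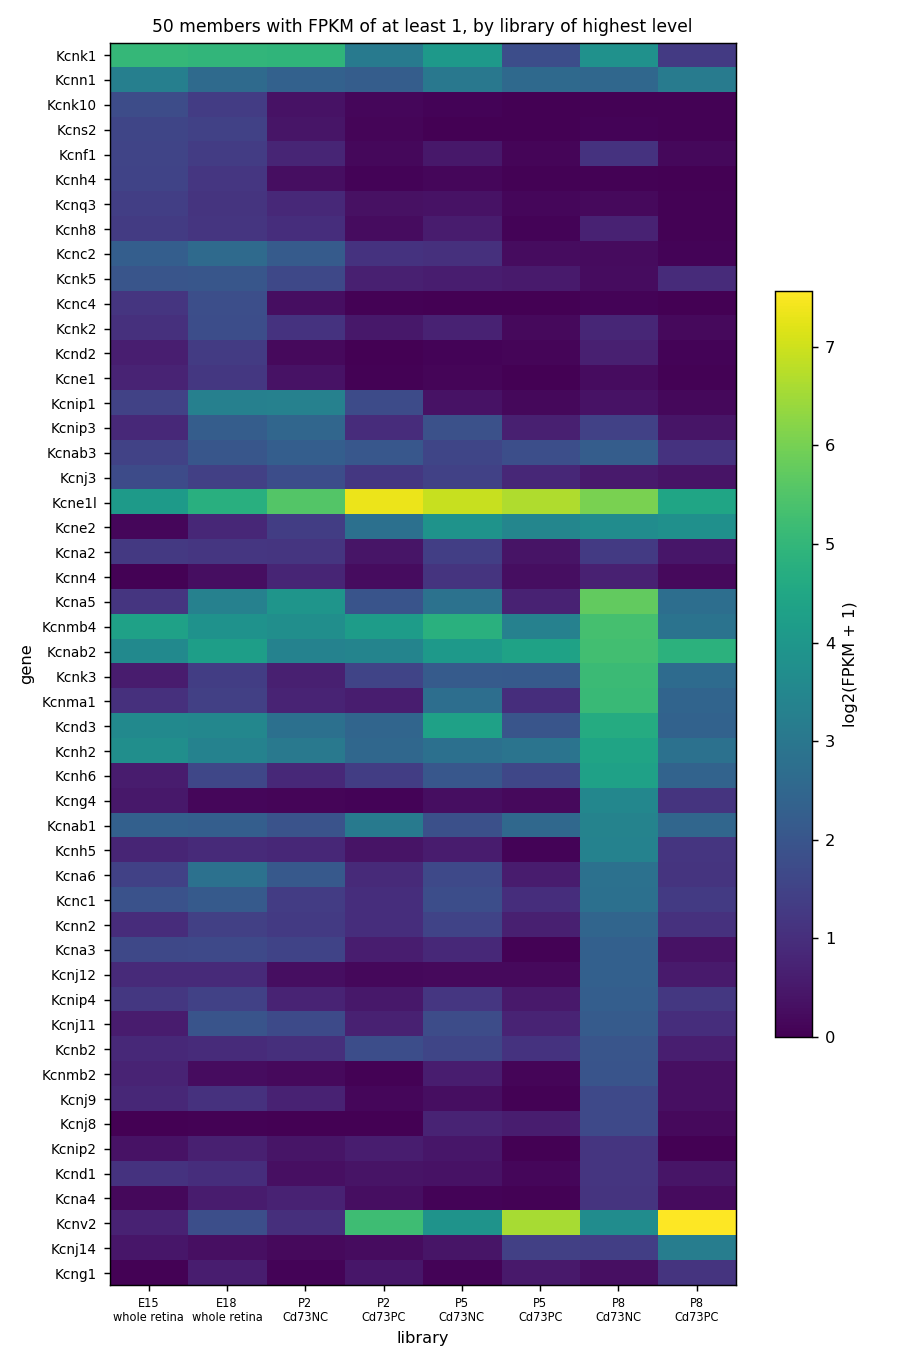
Colour scale of log2(FPKM + 1) for 50 of the genes that reached FPKM 1, in the 8 libraries, with genes ordered by the library of their highest level. Kcnv2, Kcnj14 and Kcng1 form the block whose highest level was in P8 Cd73PC.

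Within each fraction, P8 was compared with P2. In Cd73NC, 30 of the 94 genes were higher at P8 (31.9%, all genes 13.5%) and 7 were lower (7.45%, all genes 14.3%), and this comparison shares the P8 Cd73NC library with the comparison of fractions at P8. The largest log2 ratios among the 94 genes were those of Kcnk3 (4.50), Kcnma1 (4.36), Kcnh6 (3.45) and Kcng4 (3.40), and the lowest those of Kcnip1 (-2.97) and Kcnc2 (-1.95). In Cd73PC, 15 were higher (16.0%, all genes 6.4%) and 10 were lower (10.6%, all genes 14.7%). There Kcnj14 (2.96), Kcnv2 (2.35) and Kcnma1 (1.86) were among the largest, and Kcne1l (-2.90) and Kcnk1 (-1.86) were the lowest. The summed level of the 94 genes was 2.56-fold higher at P8 in Cd73NC and 1.41-fold higher in Cd73PC. Without Kcnv2 the P8 sum in Cd73PC was 0.887 of the P2 sum, but with Kcne1l left out as well it was 2.08-fold higher at P8.

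In whole retina, 15 of the 94 genes were higher at E18 than at E15 (16.0%, all genes 4.61%) and 1, Kcnn1, was lower (1.06%, all genes 2.09%). Kcna5 (log2 ratio 2.15), Kcnip1 (1.80), Kcnj11 (1.39), Kcna6 (1.35) and Kcnip3 (1.35) differed most among them. All 5 were also lower in Cd73PC than in Cd73NC at P2 (all genes 14.4%), as was Kcnk2. Kcnv2, Kcne1l, Kcne2 and Kcnk3, likewise higher at E18, were instead higher in Cd73PC at P2 (all genes 8.56%). Kcnv2 was 3.78-fold higher at E18, beside rod genes summing to 8.64 at E15 and 82.3 at E18. Of the 54 genes that reached FPKM 1, 15 had their highest level in whole retina, and 8 of the 15 (Kcnc4, Kcnd2, Kcne1, Kcnh4, Kcnh8, Kcnk10, Kcnq3 and Kcns2) stayed below 1 in all 6 sorted libraries. The share over all genes was not counted for either number. Kcnh4, for example, was 1.86 and 1.28 in whole retina and 0.20 or less after sorting, and Kcnk10, a stretch-sensitive leak channel, 2.35 and 1.53 against 0.29 or less. Ganglion cell genes summed to 954 and 596 in whole retina and to 2.43 to 19.9 in the sorted libraries. Sorting, stage and the loss of ganglion cells cannot be told apart here, since the whole retinas are embryonic and the fractions postnatal.

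Genes that work with potassium channels but carry other names were taken from a list of 25. In Cd73PC against Cd73NC, 6 of the 25 were higher at P2 (all genes 8.56%) and 7 lower (14.4%). At P5, 4 were higher (7.02%) and 8 lower (15.5%), and at P8, 4 were higher (7.54%) and 13 lower (18.6%). The sodium-potassium pump subunit Atp1b2, part of the pump that restores the potassium gradient, was at 1078 in P8 Cd73PC and at 479 in P8 Cd73NC. Hcn3 and Hcn4, cation channels opened by hyperpolarisation, were the other way round, at 4.84 and 1.13 against 43.8 and 14.2. Amigo1, a membrane partner of Kv2 pores, lay between 5.84 and 10.6 in all 8 libraries. Dpp10, a partner of Kv4 pores, was 13.7 in P8 Cd73NC against 1.26 in P8 Cd73PC, beside Kcnd3, and Cntnap2, which clusters Kv1 channels on axons, was 55.0 against 9.38, beside the Kcna genes.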

How the data were processed

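RNA from 8 samples was sequenced as single-end reads of 36 bases, with 1 library per condition. Per the submitters' processing notes and methods, the authors aligned reads to NCBI37/mm9 with TopHat2 2.0.8b, letting a read map to several places, and estimated FPKM with Cufflinks 2.1.1. CASAVA 1.8.2 and bcl2fastq 1.8.4 are also listed. The deposited FPKM tables hold 23021 rows, with lower and upper confidence bounds for the estimate within a library, which a few estimates exceed. FPKM is divided by transcript length and mapped fragments, so short or paralogous genes can be less certain.

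Rows of small RNAs (797) were left out, rows sharing a symbol were summed, and failed rows (4 to 10 per library) were taken as missing. No Kcn row had failed, and each Kcn symbol had 1 row. Of 95 Kcn symbols, 1 was left out, and some of the other 94 enter the counts and sums but are not reported singly here. Differences are log2 ratios of FPKM + 1, called past 1.5-fold. With 1 library per condition there was no SD and no test within a stage. A test with limma 3.58.1, with stage as the block and a mean-variance trend, was added over the 3 pairs of fractions, which came from the same pooled retinas. Absolute depth is unknown. Families were assigned by symbol, and exon overlaps were read from GENCODE M1 (NCBIM37), in which 93 of the 94 genes were found on the same locus.

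Named genes were those past 1.5-fold in 1 direction at all 3 stages or in opposite directions at 2, the 5 with the largest log2 ratios in each direction of the 6 comparisons among genes with FPKM 1 in either library, the 5 highest per library, and a short list of known retinal channels. Kcnh5, Kcnj9 and Kcnmb2 were described after their values were seen, and Kcna1 as a neighbour. Members, gene lists and tests were chosen with earlier results of these data known. Alternatives were pseudocounts of 0.1 and 0, a filter of FPKM 1, upper-quartile and quantile scaling, a threshold of 2-fold, confidence bounds, failed rows as 0 and rows kept apart. Scripts ran on Python 3.11.15, numpy 2.4.6, pandas 2.3.3 and matplotlib 3.10.9 and were tested on simulated data.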

Additional observations from a re-analysis of the deposited data

Results flagged for a closer look

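For 5 genes the fractions were past 1.5-fold in opposite directions at different stages, each from 1 library per fraction, and the difference between stages was not tested. The log2 ratio of FPKM + 1, Cd73PC over Cd73NC, was 1.81 at P2 and -1.59 at P8 for Kcne1l. For Kcnk3 it was 0.90 at P2 and -2.50 at P8. For Kcnb2 it was 0.76 at P2 and -1.37 at P8. Kcnab1 had a ratio of 1.20 at P2 and 0.72 at P5, and one of -0.91 at P8. Kcnk5 had the reverse order, with -0.98 at P2 and 0.69 at P8. No group had enough samples to look for an outlying library.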

How the results depend on the processing

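Within a stage no replicate could be left out, since each condition has 1 library. The fit over the 3 pairs of fractions was added after seeing the data, with its alternatives. Its 2 higher and 10 lower genes became 19 lower with a pseudocount of 0.1 and 0 and 0 with no filter, where genes at 0 in every library bring in variances of 0. Leaving out each pair in turn gave 1 to 3 higher and 0 to 13 lower. With a pseudocount of 0.1 and with none, genes higher in Cd73PC than in Cd73NC numbered 14 and 19 at P2 (8 with FPKM + 1), and without a pseudocount 7 at P5 (4), while genes lower in Cd73PC numbered 36 and 40 at P2 (15), 41 and 47 for P5 (19), and 57 with either setting for P8 (36). The same settings gave 30 and 32 genes higher (15) and 8 and 9 lower (1) at E18, 23 and 28 higher (15) and 24 and 26 lower (10) at P8 in Cd73PC, where lower genes outnumbered higher ones with 0.1, and 17 and 20 lower (7) at P8 in Cd73NC, where a pseudocount of 0.1 gave 51 higher (30). Lower pseudocounts add genes of low FPKM by construction. A threshold of 2-fold gave 5 higher and 8 lower at P2, 2 and 10 at P5, 3 higher at P8, 7 higher and 0 lower at E18, and 6 lower at P8 in Cd73PC. Quantile normalization gave 9 genes higher at E18, and it moved the median log2 ratio of expressed genes by 0.25 at P8, 0.19 at P5 and 0.11 at P2. The filter, the confidence bounds, failed rows as 0, rows kept apart and upper-quartile scaling left all 12 counts within 1.5 times. The 3 summed ratios of the fractions (log2 0.62, 0.03 and -0.24) were run under both scalings only and moved by less than that. Of the 40 named genes no ratio changed sign past 1.5-fold. Over the 3 stages, 42 of their ratios moved by 1.5-fold or more with a pseudocount of 0.1, and 78 did not. Without a pseudocount 53 moved and 64 did not. Under either scaling all 120 moved by less than that. Depth is unknown and there are no replicates, so differences among genes near FPKM 1 are the least certain.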
